A study of Mus musculus with 21 samples.

Results

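The Hox cluster genes were followed through the differentiation of mouse embryonic stem cells into embryoid bodies, the aggregates in which such cells form early embryonic tissues, with and without ascorbic acid. A gene belonged to the set if a probe set with a single gene symbol carried a Hox name of the a, b, c or d cluster followed by its paralogue number. The rule found 33 members among the 18194 genes with such a probe set, out of 39 Hox genes in the RefSeq annotation, and used no measured value. Cluster a had 9 of these members, cluster b 9, cluster c 7 and cluster d 8. Other Hox genes are not analysed here as single genes. By paralogue number, 10 members were anterior (1 to 4), 9 central (5 to 8) and 14 posterior (9 to 13).

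Hox genes encode homeodomain transcription factors that give cells their position along the head-to-tail axis. In each cluster the genes lie in the order in which they come on in the embryo, anterior members first and posterior members last, and the clusters are held silent in stem cells by Polycomb proteins. Wnt and fibroblast growth factor signals, the Cdx factors and retinoic acid open them from the anterior end during gastrulation, mainly in mesoderm and in the neural plate, and the Pbx, Meis and Pknox proteins bind DNA together with Hox proteins.

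The cells were CGR8, a mouse embryonic stem cell line, and each of 7 groups had 3 arrays described as biological replicates. Undifferentiated cells at day 0 were listed with 10% GMEM medium. Embryoid bodies were sampled at day 2, day 3 and day 5 in 20% IMDM medium, either without addition (control) or with 100 µM ascorbic acid. They began as hanging drops (500 cells in 25 µL) and were shaken from day 2 on. All groups came from 1 cell line, and the submitters analysed only cultures in which ascorbic acid later increased the number of beating embryoid bodies, so the arrays are a selected set. Day 0 differed from later days in time, culture form and medium at once, and these cannot be told apart.

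Values were log2 signals of an Affymetrix mouse array with 45101 probe sets, normalised by the submitters with RMA. Array medians ran from 6.05 to 6.19, and the correlation between arrays of a group ran from 0.966 to 0.995. The labels were checked with 7 pluripotency genes, whose mean per array was 10.04 to 10.87 at day 0. In controls it was 8.75 to 8.94 at day 2, 8.64 to 8.81 at day 3 and 6.31 to 6.63 at day 5. The ranges of day 2 and day 3 overlap, so these genes do not tell those 2 days apart. Replicate 3 of day 3 stood apart in both arms: on the first principal component, which held 54.6% of the variance, it lay at -18.3 in the control and -18.9 with ascorbic acid, against -6.1 to -2.2 for the other day 3 arrays. A probe set gives a signal even where its transcript is absent. The background was therefore gauged on each array by the 95th percentile of 72 olfactory, vomeronasal and trace amine receptor genes, which lay between 6.37 and 6.86, and a gene was called above background in a group if it exceeded the gauge on all 3 arrays. Differences between groups were tested with limma across all 18194 genes, with Benjamini-Hochberg adjustment and an adjusted p of 0.05 as the threshold, and are given as log2 differences ± standard error. Where the lower group lies at background, the log2 difference understates the change in transcript.

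Most Hox genes gave no signal above background in undifferentiated cells. At day 0, 6 of 33 members (18.2%) were above background, against 51.7% of all genes. By their brightest probe sets these 6 were Hoxa5, Hoxa7, Hoxa9, Hoxb3, Hoxc6 and Hoxc9, from the central and posterior classes except for Hoxb3. The other probe sets of Hoxa5, Hoxa9 and Hoxb3 had day 0 means of 5.06, 4.88 and 4.15, below the gauge. Those of Hoxc6 had means of 5.48, below it, and 7.04, above it. Hoxa7 and Hoxc9 had 1 probe set each. Whether the brightest probe sets read transcript or a background of their own was not tested. The group means of Hoxa5 spanned 8.39 to 8.87 and those of Hoxb3 7.05 to 7.67 over the 7 groups. The other 4 moved less: means of Hoxa7 spanned 7.30 to 7.56, those of Hoxa9 spanned 7.25 to 7.38, those of Hoxc6 spanned 6.77 to 7.05 and those of Hoxc9 spanned 7.53 to 7.85. Never above background were 18 members, and 15 of these were not called between any successive days by their brightest probe set: Hoxa2, Hoxa3, Hoxa4, Hoxa10, Hoxa11, Hoxa13, Hoxb7, Hoxb9, Hoxb13, Hoxc5, Hoxc13, Hoxd3, Hoxd11, Hoxd12 and Hoxd13. The span of their group means ran from 0.09 in Hoxa10 to 0.67 in Hoxc13. At this signal a low level cannot be told from none. In controls, 5 members were above background at day 2, 7 at day 3 and 14 at day 5, when the share was 42.4% against 53.8% of all genes. The members above background at day 5 in controls were Hoxa5, Hoxa7, Hoxa9, Hoxb1, Hoxb2, Hoxb3, Hoxb4, Hoxb6, Hoxc4, Hoxc6, Hoxc9, Hoxd1, Hoxd8 and Hoxd9. The 6 of day 0 are among them, with the same limit. With ascorbic acid at day 5 there were also 14, with Hoxb5 in place of Hoxc4.

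**Figure D1:**
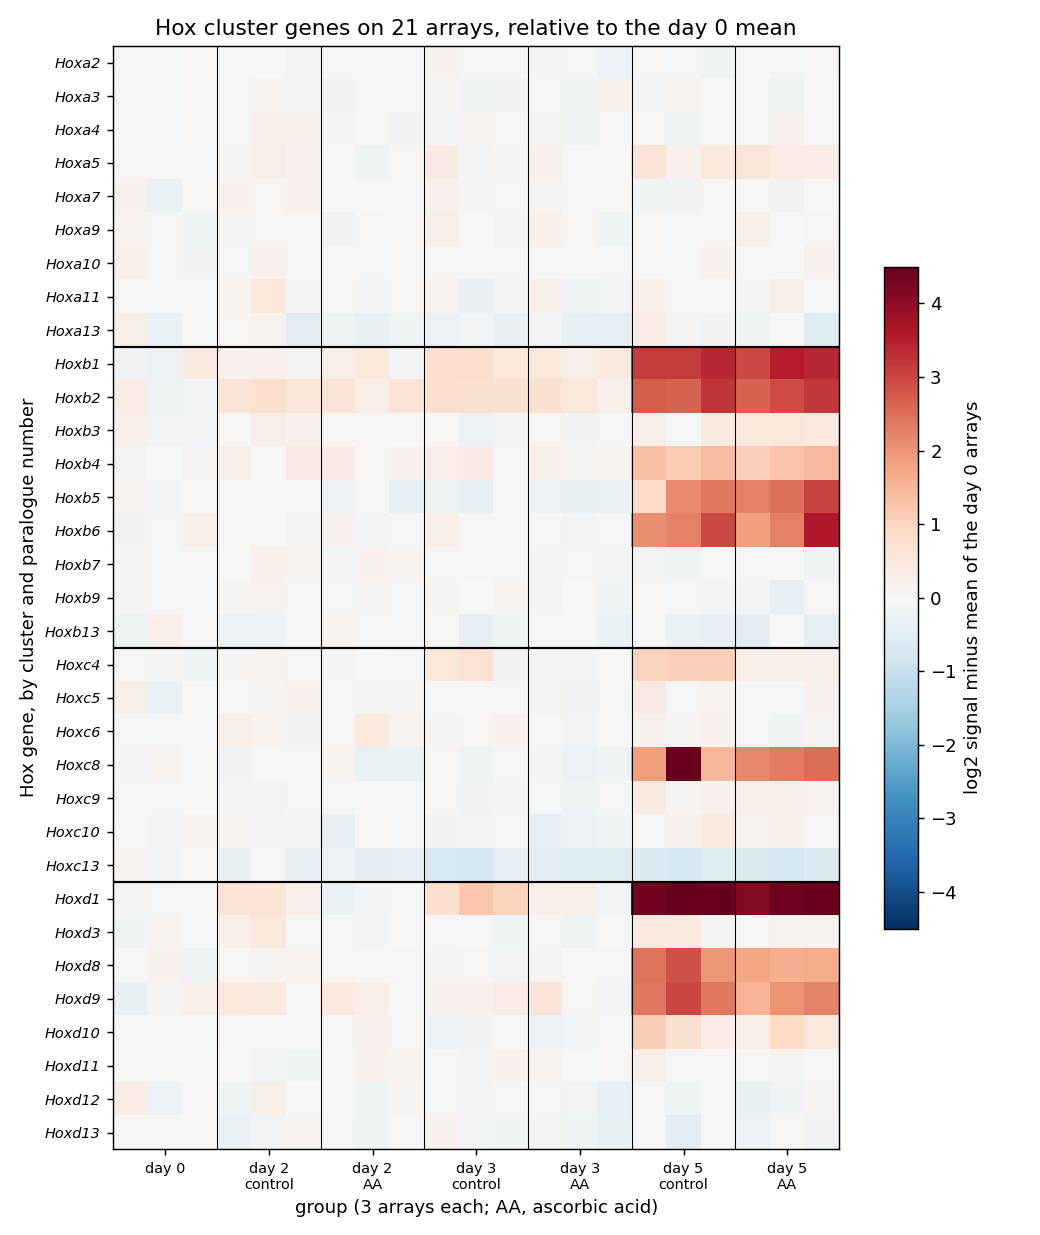
Log2 signal of the 33 Hox genes (rows, by cluster and paralogue number) on each of the 21 arrays (columns, 3 per group), shown as the difference from the mean of the 3 day 0 arrays. The strong positive differences lie in the 6 day 5 columns and in clusters b, c and d, while the 9 members of cluster a stay near 0 throughout.

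Over the first days few Hox genes were called, and with 33 members these counts are near the share of all genes. From day 0 to day 2 in controls, 1 of 33 members rose, Hoxb2, a hindbrain patterning gene, while 4.8% of all genes rose, and none fell. Hoxb2 read 6.43, 5.85 and 5.97 at day 0 and 6.66, 6.80 and 6.64 at day 2. The groups did not overlap, and the difference was 0.62 ± 0.18 (limma, adjusted p = 0.026). The call was lost without day 0 replicate 2 or 3 or day 2 control replicate 1 or 2. From day 2 to day 3 none of the members was called by limma, against 5.81% of all genes. At an unadjusted p under 0.05 there were 5 members, where 20.3% of all genes passed. The smallest adjusted p was 0.11, for Hoxd1. The count was 2 without day 3 control replicate 3, the array that stood apart, when Hoxc4 was called higher and Hoxc13 lower.

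Hoxd1, the group 1 member of cluster d and a gene of the early posterior embryo, moved in small steps over these days without a call. Its control arrays read 3.96, 3.78 and 3.82 at day 0, then 4.51, 4.44 and 4.08 at day 2, and 4.57, 5.08 and 4.86 at day 3. Each later group lay above the one before it with no overlap, but all 9 values were below the background gauge. Hoxb1, the group 1 member of cluster b and the gene that defines a hindbrain segment, read 5.56, 5.56 and 5.49 at day 2 and 6.09, 6.14 and 5.81 at day 3 in controls. These groups did not overlap either, and the difference of 0.48 ± 0.18 was not called (adjusted p = 0.138). Hoxc13, a gene of the most posterior body and of hair, had falling means without a call. Its means were 6.44 at day 0, 6.16 at day 2 and 5.84 at day 3 in controls, with adjusted p values of 0.133 and 0.116 for the 2 steps.

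Between day 3 and day 5 a block of Hox genes came up together. In controls 11 of 33 members (33.3%) rose and none fell, while 9.09% of all genes rose and 9.25% fell. The 11 were Hoxb1, Hoxb2, Hoxb4, Hoxb5, Hoxb6, Hoxc4, Hoxc8, Hoxd1, Hoxd8, Hoxd9 and Hoxd10. At an unadjusted p under 0.05 there were 16 members, where 29% of all genes passed. The median log2 difference of the 33 members was 0.30, against -0.03 for all genes. Rises were unevenly spread over the clusters: 0 of 9 members in cluster a (1 at an unadjusted p under 0.05), 5 of 9 in b, 2 of 7 in c and 4 of 8 in d. By paralogue class, 5 of 10 anterior, 4 of 9 central and 2 of 14 posterior members rose. Differences between clusters or classes were not tested. In 14 members the 3 arrays of day 5 lay wholly above those of day 3, as did 15.3% of all genes, and in 1 member, Hoxa7, wholly below, as did 19% of all genes.

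The anterior members Hoxd1 and Hoxb1 are both of paralogue group 1. Each probe set has its own background level, so the order of steps between genes is not an order of transcript change. Hoxd1 read 8.20, 8.49 and 8.65 at day 5, all far above the highest day 3 control array, 5.08, a step of 3.61 ± 0.18 (adjusted p = 1.23e-11). Hoxb1 read 8.51, 8.51 and 8.76 at day 5, against 5.81 to 6.14 at day 3, a step of 2.58 ± 0.18 (adjusted p = 3.63e-09). Both genes passed from below the background gauge to well above it.

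Hoxb2 was the only one of the 11 genes above background at day 3 in controls, with 6.80, 6.78 and 6.75. The margin was narrow, as the gauge on replicate 1 was 6.79. Hoxb2 was not above background at day 3 with ascorbic acid, nor in controls with the 99th percentile as the gauge. With the 90th percentile, Hoxd8 and Hoxd9 also passed at day 3 in controls. Hoxb2 reached 8.82, 8.75 and 9.31 at day 5, a step of 2.18 ± 0.18 (adjusted p = 2.36e-08). Hoxb4, which patterns the hindbrain and neck vertebrae and is known for expanding blood stem cells, rose from 5.88, 5.95 and 5.49 to 6.92, 6.72 and 6.97, a smaller step of 1.10 ± 0.14 (adjusted p = 8.13e-06). Hoxc4 stood at 6.33, 6.50 and 5.69 at day 3 and at 6.84, 6.93 and 6.91 at day 5. The groups were again separate, the step was 0.72 ± 0.15 (adjusted p = 0.00139), and it was 0.48 without replicate 3 of day 3, the low array.

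Among the central members, Hoxb5 and Hoxb6, genes of the neck and upper trunk mesoderm and spinal cord, rose with more spread. Hoxb5 read 4.26, 4.05 and 4.42 at day 3 and 5.40, 6.63 and 6.85 at day 5, a step of 2.05 ± 0.25 (adjusted p = 6.41e-06), with replicate 1 lowest. Hoxb6 read 5.89, 5.53 and 5.52 at day 3 and 7.66, 7.83 and 8.54 at day 5, a step of 2.36 ± 0.30 (adjusted p = 9.24e-06). All arrays of day 5 exceeded all arrays of day 3 in both genes. The probe set of their neighbour Hoxb7 was not called and lay below background in all groups: it read 5.46, 5.58 and 5.48 at day 3 and 5.40, 5.32 and 5.52 at day 5 (-0.09 ± 0.11, adjusted p = 0.666).

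Hoxc8 and Hoxd8 are trunk genes of paralogue group 8. Hoxd8 read 6.47, 6.44 and 6.24 at day 3 and 8.81, 9.20 and 8.33 at day 5, a step of 2.40 ± 0.16 (adjusted p = 1.33e-09). Hoxc8 read 3.70, 3.44 and 3.62 at day 3 and 5.55, 8.16 and 5.14 at day 5, a step of 2.70 ± 0.45 (adjusted p = 0.000191). All 3 Hoxc8 arrays rose, but the second stood far above the others and was the only one above background, and without it the step was 1.76.

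Posterior members were called only in cluster d, at paralogue numbers 9 and 10. Hoxd9, a gene of the lower trunk and limb bud, read 6.25, 6.25 and 6.37 at day 3 and 8.40, 9.05 and 8.43 at day 5, a step of 2.34 ± 0.21 (adjusted p = 1.4e-07). Hoxd10, its neighbour, read 3.13, 3.23 and 3.38 at day 3 and 4.48, 4.05 and 3.73 at day 5, a step of 0.84 ± 0.15 (adjusted p = 0.000452) that took place below background. Hoxd11, Hoxd12 and Hoxd13 moved by 0.07 ± 0.10, -0.06 ± 0.15 and -0.18 ± 0.15, with adjusted p values from 0.521 to 0.877. In cluster d the step was 3.61 in Hoxd1, 0.36 ± 0.13 in Hoxd3 (adjusted p = 0.0637), 2.40 in Hoxd8, 2.34 in Hoxd9 and 0.84 in Hoxd10. The members of the other clusters with paralogue numbers 9 and above were not called, the nearest being Hoxc9 at 0.31 ± 0.11 (adjusted p = 0.0516) and Hoxc10 at 0.31 ± 0.13 (adjusted p = 0.103).

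In cluster a the steps from day 3 to day 5 in controls ran from -0.23 in Hoxa7 to 0.34 in Hoxa13, with a median of 0.05. Hoxa5, a gene of the lung and neck vertebrae, read 8.82, 8.33 and 8.57 at day 3 and 9.03, 8.65 and 8.93 at day 5, overlapping groups with a difference of 0.30 (adjusted p = 0.161). The group means of Hoxa3 spanned no more than 6.34 to 6.44 across the study.

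**Figure D2:**
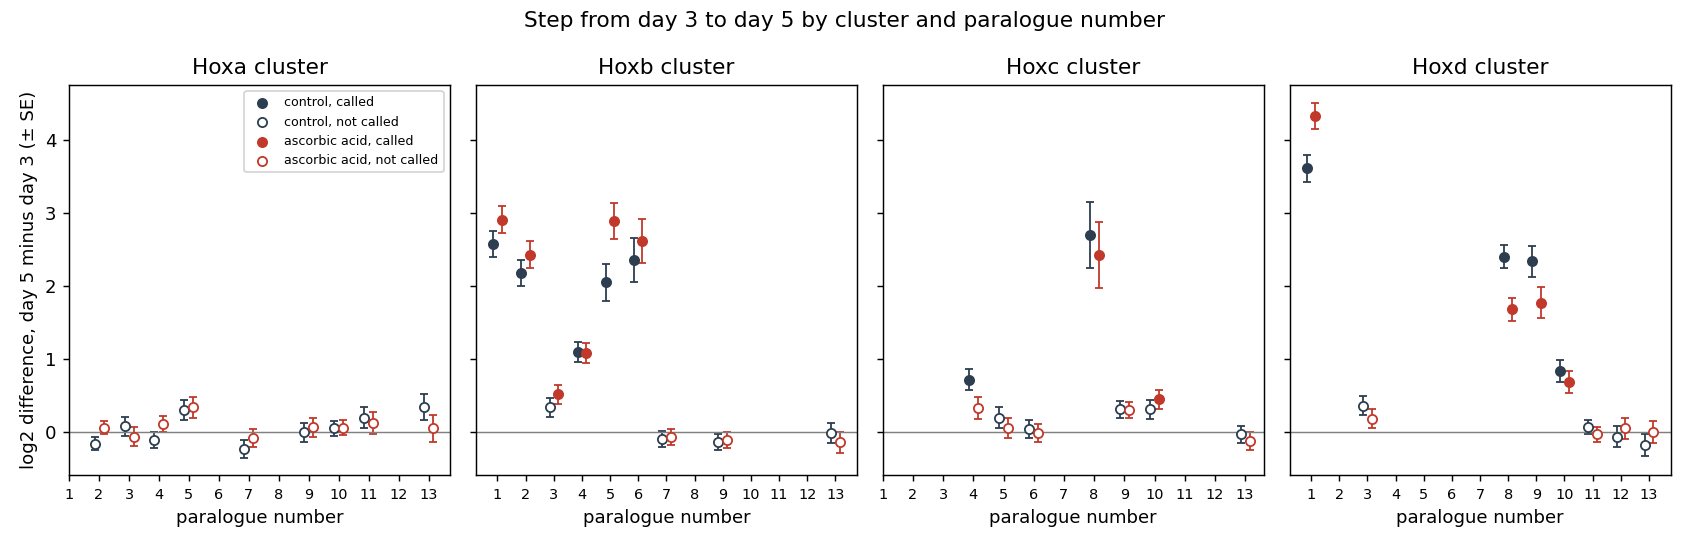
Log2 difference between day 5 and day 3 (vertical axis, ± SE of the limma fit) by paralogue number, 1 panel per cluster, for controls (dark) and ascorbic acid (red); filled points passed an adjusted p of 0.05. Cluster a lies near 0, clusters b and d start with high values at paralogue 1, and cluster d also has high values at paralogues 8 and 9.

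All 11 genes were called in every alternative in which they were tested, including without replicate 3 of day 3. Hoxc8 and Hoxd10 were not tested where genes below the gauge in all groups were removed. Tissue markers moved over the same step. Of 10 mesoderm markers 6 rose and 1 fell, with a mean per array of 6.38 to 6.69 at day 3 and 8.13 to 8.24 at day 5, whereas of 10 neural markers none rose and 2 fell (5.94 to 6.16 against 5.69 to 5.84). Of 9 blood markers 3 rose (6.75 to 6.91 against 7.37 to 8.11), of 6 endothelial markers 2 (5.84 to 5.96 against 6.46 to 7.29), and of 9 markers of extraembryonic endoderm 5. Of 6 markers of definitive endoderm Sox17 and Cxcr4 rose and Gsc and Trh fell (6.64 to 8.24 against 7.43 to 7.78). The part of these cells in the Hox step was not tested, and in such mixed samples more cells of a type and more RNA per cell cannot be told apart. The difference between the 3' and 5' probe sets of Actb, a sign of RNA integrity, was 0.96 to 1.05 at day 3 in controls. At day 5 it was 0.85 to 0.94. For Gapdh the same difference went the other way, from 0.11 to 0.16 at day 3 to 0.15 to 0.36 at day 5. The part of RNA integrity was not tested either.

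Other probe sets of the same genes were read as a check, since the brightest probe set was not always the one that moved. Of the 33 members, 11 had more than 1 probe set. For Hoxb3, a hindbrain gene, the brightest probe set went from a mean of 7.05 at day 3 to 7.39 at day 5 in controls without a call (adjusted p = 0.0786). Its second probe set read 4.57, 4.42 and 4.47 at day 3 and 6.87, 6.94 and 7.49 at day 5, a step of 2.61 ± 0.17 (limma on all probe sets, adjusted p = 6.67e-10). The 2 probe sets of this gene therefore disagree, and by the second Hoxb3 followed its neighbours in cluster b. Hoxa9 showed the same split on a smaller scale, with 0.00 ± 0.13 for the brightest probe set and 0.71 ± 0.24 for the other (adjusted p = 0.0449), which read 5.28, 4.63 and 4.35 at day 3 and 5.38, 6.15 and 4.87 at day 5, overlapping groups. For Hoxb4 and Hoxd8 the second probe sets also rose, by 0.90 (adjusted p = 0.00111) and 1.30 ± 0.10 (adjusted p = 1.32e-08). One of the other Hoxc5 probe sets rose by 0.55 (adjusted p = 0.0105), from 4.04, 3.47 and 3.93 to 4.45, 4.24 and 4.41, all below background, while the brightest did not (0.20 ± 0.14, adjusted p = 0.369). The second Hoxa5 probe set did not pass the test at 0.20. The second probe set of Hoxd13 was called at another step, from day 0 to day 2 (0.39 ± 0.12, adjusted p = 0.0354), with 5.77, 5.52 and 5.37 against 5.96, 5.89 and 5.99, all below background.

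**Figure D3:**
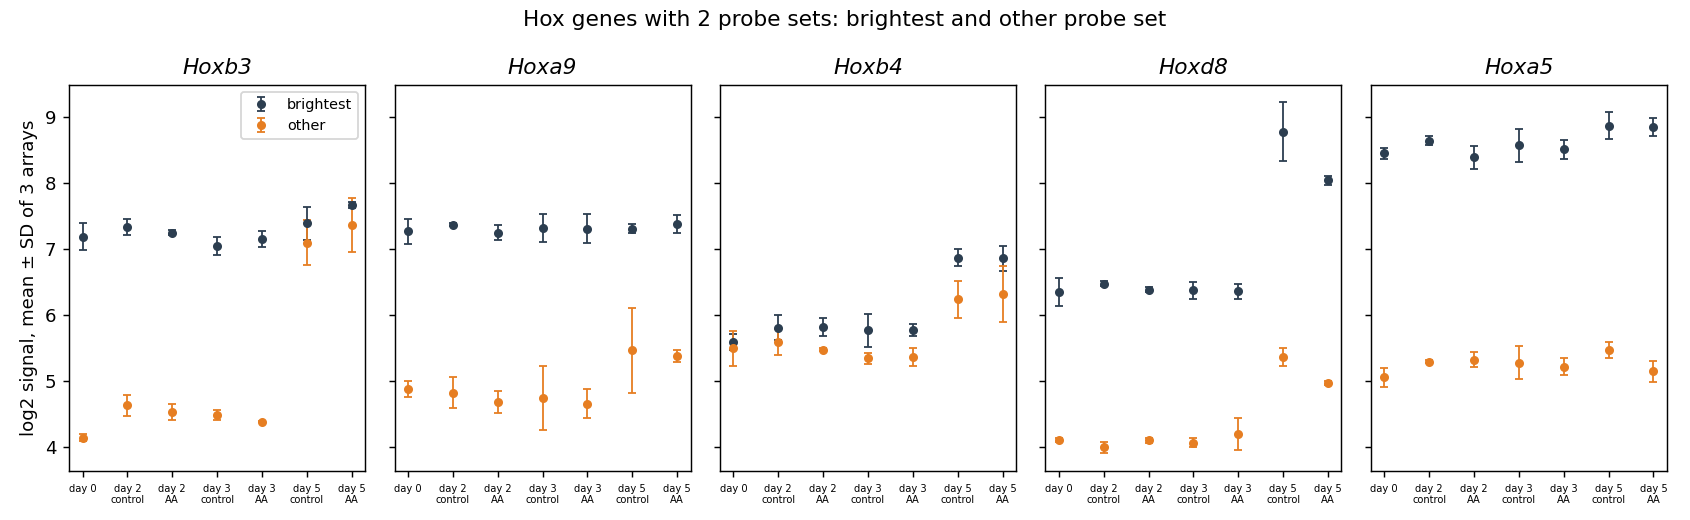
Mean log2 signal (± SD of 3 arrays) in each group for the brightest (dark) and the other probe set (orange) of Hoxb3, Hoxa9, Hoxb4, Hoxd8 and Hoxa5. In Hoxb3 the brightest probe set stays near 7 while the other goes from 4.49 at day 3 to 7.10 at day 5 in controls.

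Probe sets that share 2 Hox symbols gave the only view of Hoxb8 and Hoxd4. The probe set of Hoxb8 and Hoxb7 read 4.43, 4.05 and 4.23 at day 3 and 4.72, 4.73 and 5.71 at day 5 in controls, a step of 0.82 ± 0.23 (adjusted p = 0.0147) below background. Of the 2 probe sets of Hoxd4 and Hoxd3, the brighter read 6.80, 7.0 and 6.94 at day 3 and 7.67, 7.27 and 7.29 at day 5 (0.50, adjusted p = 0.0339), and the dimmer rose by 0.43 (adjusted p = 0.03). Such probe sets do not say which of the paired genes moved.

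Upstream sequence was available from RefSeq (build GRCm38.p6) for 19 of the 33 members, as 21 windows of 250 bases lying just before an annotated start. Windows are shown for 4 genes that rose together from day 3 to day 5, to set the base composition and the motifs of an anterior member (Hoxd1), a member of cluster b (Hoxb4) and the neighbours Hoxd8 and Hoxd9 side by side. Each is given 5′ to 3′ on the gene's strand, the plus strand in all 4, and capitals mark the half-site of the retinoic acid receptor.
Hoxd1, chr2:74762730-74762979: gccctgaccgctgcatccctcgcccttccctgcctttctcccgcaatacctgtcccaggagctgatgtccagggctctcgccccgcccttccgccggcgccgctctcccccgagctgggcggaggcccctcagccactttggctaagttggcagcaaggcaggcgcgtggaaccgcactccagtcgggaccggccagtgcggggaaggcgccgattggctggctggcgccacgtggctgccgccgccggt
Hoxb4, chr11:96318017-96318266: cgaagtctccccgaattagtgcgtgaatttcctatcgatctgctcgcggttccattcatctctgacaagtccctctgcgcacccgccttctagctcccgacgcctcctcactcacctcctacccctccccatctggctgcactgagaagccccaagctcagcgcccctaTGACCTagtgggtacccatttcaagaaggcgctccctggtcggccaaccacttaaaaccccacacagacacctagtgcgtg
Hoxd8, chr2:74704365-74704614: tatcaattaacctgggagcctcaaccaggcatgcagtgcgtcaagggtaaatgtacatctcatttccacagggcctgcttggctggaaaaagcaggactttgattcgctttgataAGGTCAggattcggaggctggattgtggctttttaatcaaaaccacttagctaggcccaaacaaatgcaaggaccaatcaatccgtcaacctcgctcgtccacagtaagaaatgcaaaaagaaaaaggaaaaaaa
Hoxd9, chr2:74697513-74697762: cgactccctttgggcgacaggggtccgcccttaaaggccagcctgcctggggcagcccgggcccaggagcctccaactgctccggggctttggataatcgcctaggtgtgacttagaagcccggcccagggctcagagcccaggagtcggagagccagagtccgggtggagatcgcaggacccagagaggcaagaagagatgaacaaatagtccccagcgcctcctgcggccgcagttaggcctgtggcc

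The windows differed in composition: that of Hoxd1 held 24 CpG dinucleotides and 71.6% G and C, that of Hoxb4 14 and 58.0%, that of Hoxd9 13 and 65.2%, and that of Hoxd8 6 and 44.4%. The median Hox window had 13 CpG dinucleotides and 59.2% G and C, against 6 and 52.4% over all 32851 windows. A half-site of the retinoic acid receptor, AGGTCA or AGTTCA on either strand, was found in 6 of 21 Hox windows and in 24.2% of all windows. In Hoxb4 it lay on the opposite strand with its first base 81 bases before the start, so that the printed strand shows its complement, and in Hoxd8 on the gene's strand 135 bases before it. Hoxc4 had matches 184 and 146 bases before its start, and Hoxd10 had 1 at 69 bases. The remaining windows with a half-site were those of Hoxd3 (161 bases) and Hoxd13 (137 bases), which were not called over this step. A Cdx-type site, TTTATG, was found in 3 of 21 Hox windows (10.8% of all), in Hoxa7, Hoxd3 and Hoxd11, none of which was called. A joint Pbx and Hox site, TGATNNAT, was found in 3 of 21 (7.68% of all), in Hoxb1 at 162 bases before the start and in Hoxa2 and Hoxd11, which were not called. A TATA box, TATAAA, was found in 2 of 21 (12.4% of all). The windows of Hoxd1 and Hoxd9, which both rose, held none of these letters. No binding was measured, so the matches describe sequence only.

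With ascorbic acid the step from day 3 to day 5 was of similar extent. Of the 33 members 12 rose (36.4%) and none fell, against 9.21% and 8.92% of all genes. Of these, 10 genes were called in both arms, 90.9% of the control list and 83.3% of the ascorbic acid list. The overlap over all genes was not counted, so whether this share is particular to Hox genes is not known. No array is shared with the control arm, but the arms are not independent. The fit uses 1 estimate of the spread over all arrays, and replicate 3 of day 3 stood apart in both arms. Hoxc4 was called in controls alone, and Hoxb3 (0.52 ± 0.13, adjusted p = 0.00755) and Hoxc10 (0.45 ± 0.13, adjusted p = 0.017) with ascorbic acid alone. A call in one arm does not show that the arms differ, and the call of Hoxc10 was lost without replicate 1 of day 3 or without replicate 1 or 2 of day 5. The counts by cluster were 0 of 9 in a, 6 of 9 in b, 2 of 7 in c and 4 of 8 in d. The step was 4.33 ± 0.18 in Hoxd1 (adjusted p = 5.91e-13), 2.91 ± 0.18 in Hoxb1 and 2.89 ± 0.25 in Hoxb5.

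**Figure D4:**
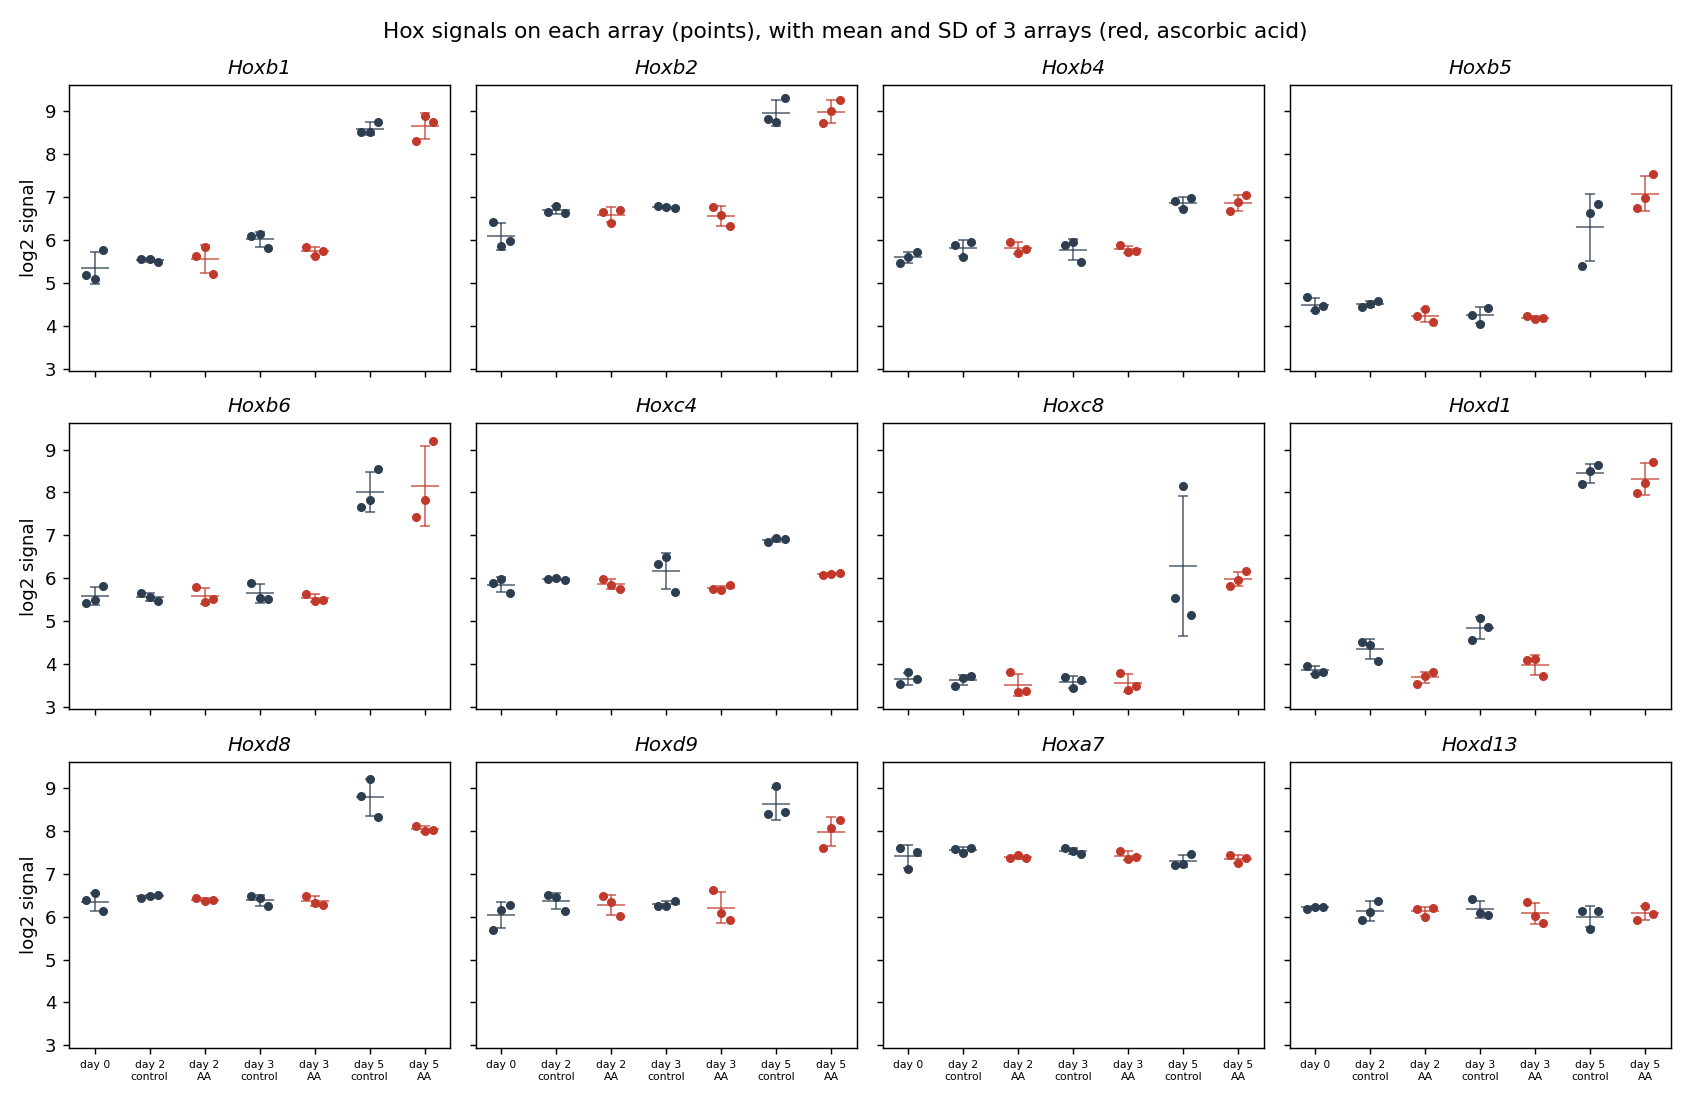
Log2 signal of 12 Hox genes on each array (points) with the mean and SD of the 3 arrays of a group (bars), in order of day, controls dark and ascorbic acid red. The 10 genes from Hoxb1 to Hoxd9 rise at day 5 in controls, and Hoxa7 and Hoxd13 are shown as members without a call; in Hoxc4 the ascorbic acid arrays of day 5 (6.08 to 6.12) lie below the controls (6.84 to 6.93).

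Ascorbic acid itself changed few Hox genes. Without pairing, no member was called at day 2 or day 3 by limma against 0.0055% and 0% of all genes. At an unadjusted p under 0.05 there were 3 members at day 2 and 2 at day 3, where 7.37% and 1.48% of all genes passed. At day 5 only Hoxc4 was called, as lower, with 0.0165% of all genes called lower. A treated array and the control with its day and number deviated together from their group means in 9 of 9 pairs (r from 0.178 to 0.679). The r of 0.178 and 0.224 at day 2 and of 0.213 at day 5 lay within the range between successive controls (-0.071 to 0.26). Only the replicate numbers link the arrays, so the pairing is uncertain. The fit with the 9 pairs as blocks is therefore given beside the unpaired one. In it 1 member was lower at day 2 and 1 at day 3, both times Hoxd1 (0.539% and 0.104% of all genes were lower). At day 5 Hoxb5 was higher (0.78% of all genes), and Hoxc4 and Hoxd8 were lower (0.176%). Averaged over the 3 days, no member was called without pairing (0.0275% of all genes were; at an unadjusted p under 0.05 it was 5 members and 4.82% of all genes), and Hoxc4 and Hoxd1 were lower with pairing (0.495% of all genes). The sign of the average was below 0 in 26 of 33 members and above 0 in 7, while 51.8% of all genes were above 0. By day, 24 members were below 0 at day 2, 25 at day 3 and 20 at day 5. Of all genes 47.2%, 51.5% and 52.9% were above 0 on these days. Members share the same arrays and 18 were never above background, so the signs are not independent and a general lowering was not tested.

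Hoxd1 was lower with ascorbic acid before its large rise. At day 2 the treated arrays read 3.54, 3.72 and 3.81 against 4.51, 4.44 and 4.08 in controls, and at day 3 they read 4.09, 4.13 and 3.72 against 4.57, 5.08 and 4.86. The groups did not overlap on either day, and all of these values lay below the background gauge. The difference was -0.65 at day 2 (adjusted p = 0.479 unpaired, 0.0241 paired) and -0.86 at day 3 (0.393 unpaired, 0.0232 paired), and averaged over the days it was -0.55 ± 0.08 in the paired fit (adjusted p = 0.00157; 0.0603 unpaired), lower in 8 of 9 pairs. At day 5, with 7.99, 8.23 and 8.71 against 8.20, 8.49 and 8.65, the groups overlapped and the difference was -0.14 (adjusted p = 0.954 paired). The paired calls depended on single pairs: at day 2 the call held only without pair 3 (-0.84, adjusted p = 0.00816), and at day 3 only without pair 1 (-1.04, adjusted p = 0.0332).

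Hoxc4 was lower with ascorbic acid at day 5, when the treated arrays read 6.08, 6.10 and 6.12 and the controls 6.84, 6.93 and 6.91. The groups were tight and separate, and the controls alone lay above background. The difference was -0.79 ± 0.15 (adjusted p = 0.0485 unpaired) or ± 0.14 (0.00995 paired), with -0.76, -0.83 and -0.79 in the 3 pairs. It missed the threshold after a renewed normalisation (0.0746), with dim genes removed (0.0889), without the intensity trend (0.0503) or with the day 5 arrays alone (0.0942). It was also lost without any 1 of the 3 controls (0.118 to 0.172) and without treated replicate 1 (0.187) or 2 (0.298), and in the paired fit without pair 1 (0.0898) or pair 2 (0.0818). At day 3 the difference was -0.40 (adjusted p = 0.708 paired) with 2 of 3 pairs lower, and at day 2 it was -0.12.

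Hoxd8 and Hoxd9 were both lower at day 5 on every treated array. For Hoxd8 the treated arrays read 8.12, 7.99 and 8.02 against 8.81, 9.20 and 8.33, a difference of -0.74 ± 0.16 unpaired (adjusted p = 0.12) and ± 0.14 paired (0.012). For Hoxd9 they read 7.60, 8.06 and 8.26 against 8.40, 9.05 and 8.43, a difference of -0.65 that was not called (0.905 unpaired, 0.0653 paired). The second probe set of Hoxd8 gave a difference of -0.40 without a call (adjusted p = 0.116 paired).

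Hoxb5 went the other way. Its treated arrays at day 5 read 6.74, 6.97 and 7.53 against 5.40, 6.63 and 6.85 in controls, groups that overlapped although each pair was higher (1.34, 0.34 and 0.68). The difference of 0.79 was called in the paired fit (± 0.15, adjusted p = 0.0146) and not in the unpaired one (± 0.25, 0.87). Among the paired calls at day 5, none was left without pair 1, Hoxb5 alone was called without pair 2, and without pair 3 the count was 4, with Hoxd9 added. Whether the effect of ascorbic acid differed between the days was tested for all genes, and no Hox gene was called by limma in either fit (0.0055% of all genes were called unpaired and 0.511% paired). At an unadjusted p under 0.05 there were 4 members unpaired and 5 paired, where 2.7% and 9.99% of all genes passed. The smallest adjusted p was 0.0532, for Hoxb5 in the paired fit.

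**Figure D5:**
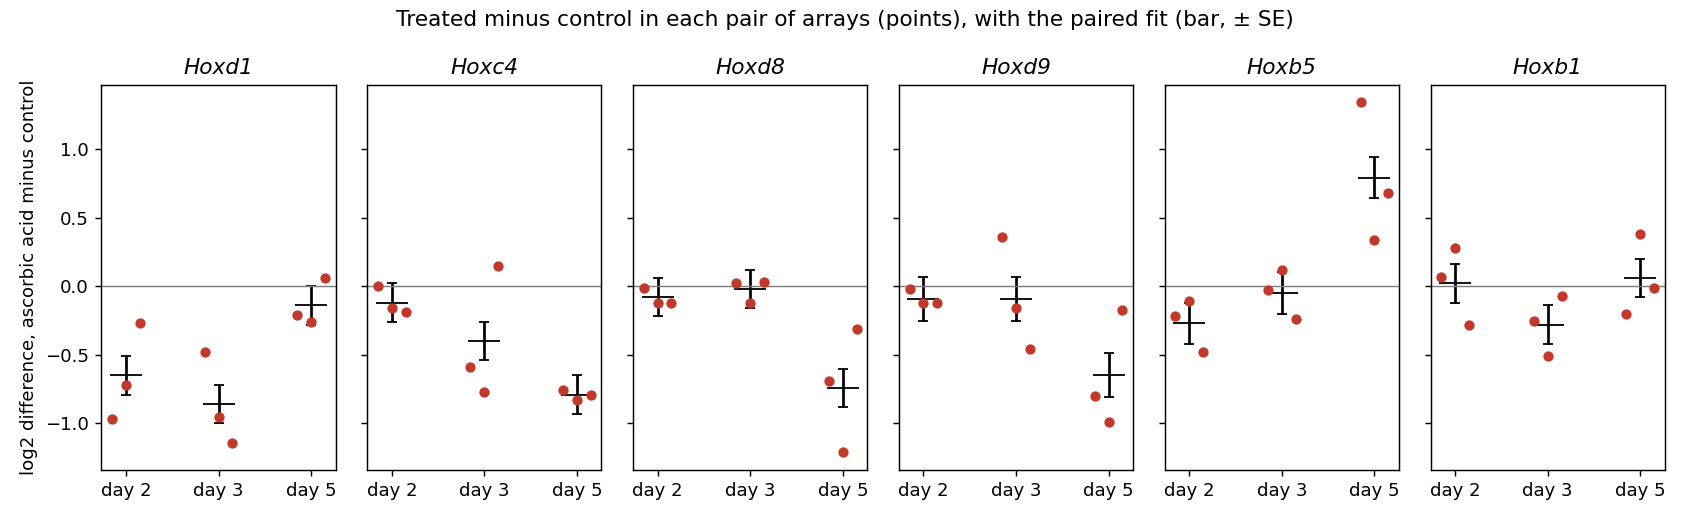
Log2 difference between ascorbic acid and control in each of the 3 pairs of arrays at days 2, 3 and 5 (points), with the estimate of the paired limma fit (bar, ± SE), for 6 Hox genes. Hoxd1 lies below 0 at days 2 and 3, Hoxc4 and Hoxd8 lie below 0 in all pairs at day 5, Hoxb5 lies above 0 in all pairs at day 5, and Hoxb1 scatters about 0.

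Other cell types moved with ascorbic acid at day 5. Of 9 blood markers 2 were higher without pairing and 6 with it, with array means of 8.36 to 9.28 against 7.37 to 8.11, and of 6 endothelial markers 2 were higher with pairing (6.94 to 7.98 against 6.46 to 7.29). Mesoderm markers had array means of 7.87 to 8.18 against 8.13 to 8.24, and none of the 10 was called. Among 10 neural markers Zic1 alone was lower, by a log2 difference of -1.82 ± 0.31 unpaired (adjusted p = 0.0232), and at day 3, where Hoxd1 was lower, its difference was -1.25 ± 0.17 in the paired fit (adjusted p = 0.00301). The part of these tissues in the Hox differences was not tested.

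The factors that act on the clusters or with their products changed in step with the Hox genes only in part. Of 11 measured regulators and cofactors, 4 rose from day 3 to day 5 in controls and none fell. Cdx2, which opens the central Hox genes in the posterior embryo, read 7.19, 7.18 and 6.38 at day 3 and 9.67, 9.23 and 9.96 at day 5, a step of 2.70 ± 0.32 (adjusted p = 3.94e-06). Meis2 rose by 1.77 ± 0.40, Pknox2 by 1.58 ± 0.20 and Pbx2 by 0.78 ± 0.20. Cdx1 (-0.16 ± 0.20) and Cdx4 (-0.19 ± 0.11) were not called. Pbx3 had risen earlier, by 1.66 ± 0.31 to day 2 and 1.56 to day 3. With ascorbic acid Cdx2 at day 5 read 7.65, 9.22 and 9.43, a difference of -0.85 that was not called (adjusted p = 0.176 paired), and Meis2 was lower on average over the days (-0.31 ± 0.06, adjusted p = 0.0138 paired). Replicate 3 of day 3, which read low in Cdx2 and Meis2, was also the array that stood apart.

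Genes of signals that act on the clusters moved partly before and partly over the same step as the Hox genes. From day 2 to day 3 no Hox gene was called, a count near the share of all genes (5.81%). Of 13 genes of posterior axial progenitors 5 rose over that step (Wnt8a, Fgf8, Sp5, Sp8 and Rspo3). From day 3 to day 5 4 of them fell, among them Fgf8, which went from 10.13, 10.34 and 8.55 to 5.69, 5.58 and 5.24, while Wnt5a rose by 2.71 ± 0.14 and Rspo3 by 1.85 ± 0.38. Of 12 genes of retinoic acid metabolism and response 3 rose from day 3 to day 5 and 1 fell. The receptor gene Rarb rose by 1.15 ± 0.28, Aldh1a2, which makes retinoic acid, by 1.03 ± 0.21, and Crabp1, which binds it, by 2.26 ± 0.34, whereas Dhrs3 fell by 0.72 on the log2 scale. Of 19 measured Polycomb and trithorax genes of 21, 3 rose (Bmi1, Cbx8 and Kdm6b, a histone demethylase that removes the Polycomb mark) and 4 fell (Eed, Suz12, Jarid2 and Cbx7) over the same step. Cbx7, a Polycomb reader of stem cells, had the largest fall of these at -1.79 ± 0.20 (adjusted p = 2.41e-06).

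The genes next to the clusters were read over the same step. Of 11 measured neighbours of 12, none was called from day 3 to day 5 in controls. Of all genes 9.09% rose and 9.25% fell, so among so few genes a count of 0 is near the general share. The array means of the neighbours were 7.31 to 7.47 at day 3 and 7.30 to 7.39 at day 5. Evx1, at the posterior end of cluster a, rose between day 2 and day 3 (1.15 ± 0.24, adjusted p = 0.00787), and its means were 7.37 at day 3 and 7.04 at day 5 (-0.32 ± 0.24, adjusted p = 0.438). Evx2, at the posterior end of cluster d, read 6.66 and 6.59 on average. Skap1, next to cluster b, rose with ascorbic acid (1.10 ± 0.22, adjusted p = 0.00144) and was higher than in controls at day 5 in the paired fit (1.00 ± 0.22, adjusted p = 0.0394). Of the 3 measured noncoding genes of the clusters out of 12 listed, Hoxb5os rose in both arms, by 0.76 ± 0.22 in controls (adjusted p = 0.0196), from 6.85, 6.82 and 6.53 to 7.96, 7.53 and 7.0. Hoxa11os was called higher with ascorbic acid alone (0.32 ± 0.10, adjusted p = 0.0313; 0.15 in controls, 0.388). The 2 probe sets of Hoxd3os1, from cluster d, disagreed. The brighter was not called from day 3 to day 5 in controls (0.27 ± 0.11, adjusted p = 0.106) nor for ascorbic acid at day 5 (-0.13, 0.932 paired). The other rose from 3.57, 3.59 and 3.45 to 5.18, 5.19 and 4.60 (1.45 ± 0.17, adjusted p = 3.94e-06), and was lower with ascorbic acid at day 5 (-0.79, adjusted p = 0.124 unpaired, 0.0255 paired), all below background.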

How the data were processed

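Log2 signals per probe set, made by the authors with RMA per the submitters' processing notes (version and genome build not given in the sources used here), were used as deposited; 0 sample columns were left out. RNA input was 100 ng per the labels. Of 45101 probe sets 34958 had 1 gene symbol, 932 several and 9211 none, by the platform annotation. The brightest single-symbol probe set by mean over the 21 arrays stood for a gene. Groups were compared with limma 3.58.1 (R 4.3.3; 7 group means, eBayes with intensity trend, Benjamini-Hochberg over 18194 genes), unpaired as the main fit, and with 9 pairs of treated and control arrays as blocks. The pairing came from the replicate numbers: r was 0.178 to 0.679 in 9 of 9 pairs, against -0.071 to 0.26 between successive controls. The fit was tested on simulated data, and the result of that test is not given here. Values were given per array for members called or above background, others by range. Alternatives were another normalisation, a filter on dim genes, no trend, all probe sets averaged, fewer arrays, replicate blocks and leaving out each array; pairs left out were chosen after seeing the data. Members and gene lists were chosen with earlier results of these data known. The number of arrays limits the precision, and p-values measure only the spread between these replicates.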

Additional observations from a re-analysis of the deposited data

How the results depend on the processing

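No result changed direction. The rise of Hox genes from day 3 to day 5 held under every alternative: leaving out 1 array in turn gave 11 to 13 genes in controls and 11 to 12 with ascorbic acid, and the replicate number as a block across all arrays gave 12 and 13, with Hoxc9 added in both. With all probe sets averaged there were 13 and 13. From day 0 to day 2 the count of 1 became 2 after a renewed normalisation (Hoxc13 lower), 0 with only the arrays compared, and 0 to 2 leaving out 1 array. From day 2 to day 3 the count of 0 became 1 with only the arrays compared (Hoxb1), and 0 to 2 leaving out 1 array. For ascorbic acid at day 5 the unpaired count of 1 became 0 after a renewed normalisation, with dim genes removed, without the intensity trend and with only the arrays compared, 3 with the replicate block by pair, and 0 to 4 leaving out 1 array or pair. At day 2 and day 3 the count of 0 became 1 with the pair block and 0 to 1 leaving out 1 array or pair. Averaged over days it became 2 with the pair block and 2 with only the arrays compared, and 0 to 1 leaving out 1 array, 1 without day 2 control replicate 3 or day 5 ascorbic acid replicate 3 (Hoxd1) and 1 without day 3 control replicate 3 (Hoxc4). The test between days gave 0 in every such fit. With the 99th percentile of the receptor genes as the gauge, 2 members were above background at day 0, 4 at day 3 and 8 at day 5 in controls. The shares of all genes were 36.0%, 43.2% and 41.7%. At day 5 with ascorbic acid 11 members passed this gauge, and 42.4% of all genes. With probe sets averaged, the counts were 3 at day 0 and 4 at day 3. Leaving out 1 array gave 6, 7 and 14 to 15, and 14 at day 5 with ascorbic acid. The cause of these changes was not tested. With 3 arrays a group, changes in members below background are limited by the signal over background.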
